A study of Mus musculus with 4 samples.

Results

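Immortalized bone marrow-derived macrophages of MK2-knockout mice that carried an empty retroviral vector with GFP (i*MK2*-KO +*GFP*) were compared, at rest, with the same cells carrying reintroduced MK2 (i*MK2*-KO +*MK2*). MK2 (encoded by *Mapkapk2*) is a kinase that p38 MAP kinase switches on in stressed or inflamed cells, and it is best known for controlling the stability and translation of cytokine mRNAs that carry AU-rich elements. It also forms a complex with p38α and stabilizes it. Macrophages engulf dead cells and microbes, present antigen and release cytokines, and the levels of their receptors, lineage transcription factors and chemokines differ widely with their state. The comparison asked which functions separate the resting cells that lack MK2 from those in which it was restored.

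The data described here consisted of the 2 untreated (UT) libraries among 4, 1 for each line. They were chosen by their labels and not by any measured value. The other pair came from the same lines after IL-1α (5 ng/mL, 1 h) and served as a second look at the lines with no library in common. Both lines were derived from MK2-knockout macrophages, were transduced with the pMMP-IRES-GFP vector and were sorted for the GFP signal, so the control carries the knockout and GFP as well. The labels give the genotype of i*MK2*-KO +*MK2* as wild type. The mice of the study were adults of both sexes, and the labels do not say which animal the immortalized cells came from. Each line is a single transduced culture, so MK2 and everything else that separates these cultures cannot be told apart. The cells of both lines are called +*GFP* and +*MK2* below. As each condition has 1 library, the spread between replicates is unknown and no test was made. The values are DESeq2 normalized counts, which summed to between 24891906 and 25733071 per library. Ratios are log2 ratios of i*MK2*-KO +*GFP* over i*MK2*-KO +*MK2* after adding a pseudocount of 1, and cover the 12483 genes whose mean over the 4 libraries was 10 or more. The 95% exact Clopper-Pearson intervals treat 1 normalized count as 1 read and cover counting error only. Where a pair of counts is given as 1 value against another, the UT +*GFP* value comes first.

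Genes that were at least 2-fold higher in UT +*GFP* cells had CpG-poor promoters more often than other measured genes, as described below. The promoters of 3 such genes and of 3 genes that were lower are therefore shown first. Each is the stretch of 250 bases before the RefSeq start (GRCm38.p6), 5′ to 3′ on the strand of the gene, with CpG dinucleotides in capitals. *Cybb* encodes the catalytic subunit of the phagocyte NADPH oxidase, *Clec4e* the lectin receptor Mincle and *Trem1* an activating receptor of the immunoglobulin family, and all were higher. *Igf1r* (the IGF-1 receptor), *Cebpa* (a myeloid transcription factor) and *Dab2* (an endocytic adaptor) were lower.
Cybb (chrX:9469325-9469574, minus strand, 1 CpG): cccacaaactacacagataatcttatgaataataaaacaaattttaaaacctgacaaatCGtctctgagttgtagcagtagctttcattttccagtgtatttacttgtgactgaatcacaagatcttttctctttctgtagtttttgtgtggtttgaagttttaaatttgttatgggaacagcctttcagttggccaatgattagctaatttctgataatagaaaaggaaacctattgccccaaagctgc
Clec4e (chr6:123289872-123290121, minus strand, 3 CpG): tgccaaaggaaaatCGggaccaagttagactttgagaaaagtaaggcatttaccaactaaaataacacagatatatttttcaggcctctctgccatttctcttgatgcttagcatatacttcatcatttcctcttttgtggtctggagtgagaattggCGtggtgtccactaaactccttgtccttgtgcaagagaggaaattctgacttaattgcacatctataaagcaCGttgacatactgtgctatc
Trem1 (chr17:48232489-48232738, plus strand, 2 CpG): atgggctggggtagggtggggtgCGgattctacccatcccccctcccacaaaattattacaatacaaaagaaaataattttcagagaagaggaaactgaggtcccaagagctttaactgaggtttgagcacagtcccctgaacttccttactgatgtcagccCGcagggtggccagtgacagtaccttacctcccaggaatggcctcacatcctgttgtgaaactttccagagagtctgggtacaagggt
Igf1r (chr7:67952007-67952256, plus strand, 42 CpG): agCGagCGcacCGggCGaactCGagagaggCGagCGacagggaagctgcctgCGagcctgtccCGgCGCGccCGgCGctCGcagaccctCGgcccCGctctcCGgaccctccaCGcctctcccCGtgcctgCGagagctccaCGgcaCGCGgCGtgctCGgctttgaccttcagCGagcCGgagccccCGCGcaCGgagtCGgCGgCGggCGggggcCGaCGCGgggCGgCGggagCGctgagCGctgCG
Cebpa (chr7:35119043-35119292, plus strand, 22 CpG): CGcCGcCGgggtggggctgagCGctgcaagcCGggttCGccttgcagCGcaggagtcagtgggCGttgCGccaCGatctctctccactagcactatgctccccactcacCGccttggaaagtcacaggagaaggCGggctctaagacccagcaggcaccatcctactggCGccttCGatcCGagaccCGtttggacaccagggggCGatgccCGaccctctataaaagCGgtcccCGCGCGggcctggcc
Dab2 (chr15:6299539-6299788, plus strand, 2 CpG): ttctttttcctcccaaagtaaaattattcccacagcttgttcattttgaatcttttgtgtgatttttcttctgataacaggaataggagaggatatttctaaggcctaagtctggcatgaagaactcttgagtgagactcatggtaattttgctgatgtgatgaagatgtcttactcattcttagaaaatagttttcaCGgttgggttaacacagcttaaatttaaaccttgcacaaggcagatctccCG
The promoters of *Cybb*, *Clec4e* and *Trem1* held 1, 3 and 2 CpG dinucleotides. Those of *Igf1r* and *Cebpa* held 42 and 22, whereas that of *Dab2* held 2.

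The targeted gene separated the lines as labelled. *Mapkapk2* (chromosome 1, 131053700 to 131097826 in GRCm38) reached 561 normalized counts in UT +*GFP* and 38357 in UT +*MK2* cells, a 68.4-fold difference. After IL-1α the counts were 1585 and 38141. The closely related kinase gene *Mapkapk3* had counts of 2072 in UT +*GFP* and 1350 in UT +*MK2* cells (log2 ratio 0.62, interval 0.52 to 0.72). Of 14 measured genes of the p38 and MK2 kinase family, *Mapkapk2* and *Mapk11*, encoding p38β, were lower by at least 2-fold. *Mapk11* had 5 normalized counts against 172, and 3 against 166 after IL-1α.

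Both libraries had the profile of macrophages. The 25 macrophage genes of the marker list summed to 187754 normalized counts in UT +*GFP* and 190653 in UT +*MK2* cells, but these sums rest on a few abundant genes. Of the 24 measured, 6 were at least 2-fold lower and 2 at least 2-fold higher. *Csf1r*, the receptor for the macrophage growth factor, had 23227 and 20290, and *Cd68*, a lysosomal glycoprotein, 15734 and 16876. All 10 endothelial and epithelial genes and 10 of 11 mast cell and basophil genes were at 3 counts or less in both UT libraries, as were 11 of 14 lymphocyte genes and 10 of 12 fibroblast genes. Of 11 osteoclast genes, many of which macrophages share, 1 was at 3 counts or less. Their sums of 38380 and 49342 came mostly from the protease gene *Ctsk* (37221 against 47639), and of the 5 measured, *Dcstamp* (3 against 40) and *Atp6v0d2* (146 against 330), which are linked to osteoclast fusion, were at least 2-fold lower. Of 12 dendritic cell genes, 8 were at 3 or less, and the sums of 1324 and 1596 came mostly from the transcription factor gene *Tcf4* (1241 against 1461). Of the 3 measured dendritic cell genes, 1 was lower and 1 higher by at least 2-fold. *Zbtb46*, a dendritic cell factor, had 23 against 104, whereas the integrin gene *Itgax*, described below, was higher (log2 ratio 1.51). Among neutrophil genes, *Mpo* and *S100a9* were at 0 in both UT libraries, and the sum of the 12 genes (585 against 171) came mainly from the protease gene *Mmp8* (530 against 115). The platelet chemokine gene *Pf4*, which macrophages can also express, made up most of the difference in the erythroid and megakaryocyte list (104 against 1784). The UT +*GFP* library also held more ribosomal and other structural RNA than the remaining libraries. *Rn18s-rs5*, which carries 18S rRNA sequence, had 106016 normalized counts there, 20229 in the IL-1α-treated library of the same line, and 13482 and 12287 in the +*MK2* libraries. *Lars2*, encoding the mitochondrial leucyl-tRNA synthetase, followed the same order (12021, 4232, 2798 and 2753). The signal recognition particle RNA gene *Rn7s1* had 507 and 100 in +*GFP* and 0 in both +*MK2* libraries. The part of this difference in the results below was not tested. Counts for protein-coding genes alone are given beside the totals at rest and in both pairs, although *Lars2* is itself protein-coding.

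In UT +*GFP* cells, 438 of 12483 genes (3.51%) were at least 2-fold higher and 657 (5.26%) at least 2-fold lower than in UT +*MK2* cells. Of 10789 protein-coding genes, 327 were higher and 514 lower. The majority of genes were close, and 82.4% differed by less than 1.5-fold. The median log2 ratio of all genes was 0.02, with quartiles of -0.22 and 0.21. The share of genes past 2-fold depended on the level of the gene. Between mean counts of 10 and 30, 10.4% were higher and 17.0% lower, whereas above 3000 the shares were 0.467% and 0.674%. Of the 8472 genes that averaged 300 or more, 93 (1.10%) were higher and 129 (1.52%) lower.

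The difference between the resting lines was largely found again in the pair of IL-1α libraries. In that pair 4.16% of genes were higher and 5.57% lower by at least 2-fold. Of the 438 genes that were higher at rest, 271 (61.9%) were again at least 2-fold higher, and 384 had the same sign. Among the 657 lower genes, 450 (68.5%) were again at least 2-fold lower, and 583 had the same sign. Of protein-coding genes alone, 235 were at least 2-fold higher and 401 at least 2-fold lower in both pairs. Of all genes, 8 and 12, respectively, were past 2-fold in the opposite direction. Across the 12483 genes the log2 ratios of the UT and the IL-1α pair had a Pearson correlation of 0.774. Genes are not independent replicates, and the pairs share the lines but no library. Between the 2 libraries of one line, fewer genes were apart. In +*MK2* cells 1.92% of genes differed at least 2-fold in either direction between IL-1α and UT, and in +*GFP* cells 3.85%.

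**Figure D1:**
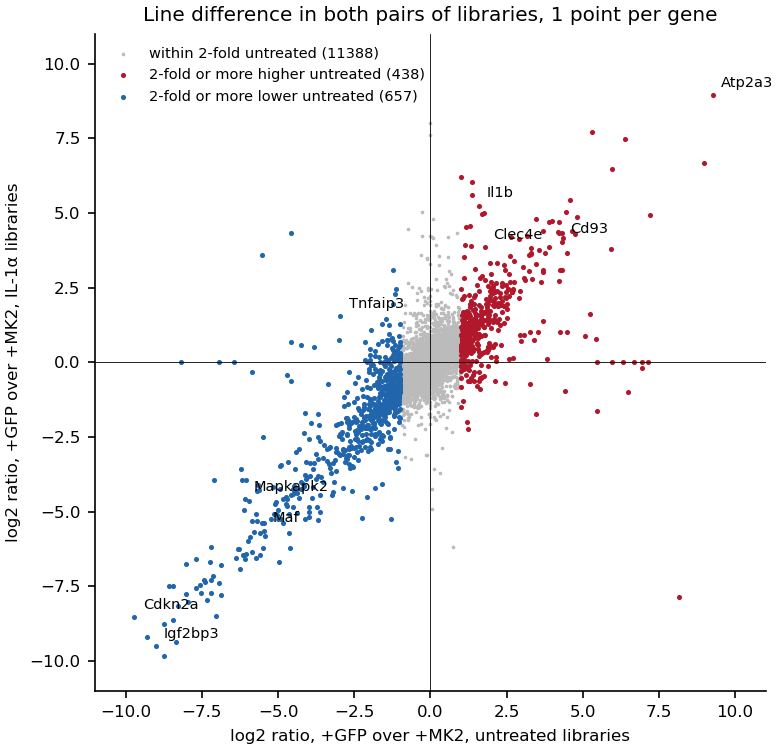
Log2 ratio of +*GFP* over +*MK2* for 12483 genes in the untreated libraries (x axis) and in the IL-1α libraries (y axis), 1 point per gene. The 438 higher and 657 lower genes mostly lie along the diagonal, with *Mapkapk2*, *Cdkn2a* and *Igf2bp3* at the low end and *Atp2a3* at the high end. *Tnfaip3* lies on opposite sides of 0.

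Some genes were nearly silent in 1 line only. In both +*GFP* libraries, 45 protein-coding genes were at 3 counts or less while both +*MK2* libraries had 50 or more. The reverse held for 6 protein-coding genes. *Cdkn2a* (chromosome 4, 89274471 to 89294653), encoding the cell cycle inhibitor p16INK4a and the p53 activator ARF, had 0 counts in UT +*GFP* and 839 in UT +*MK2* cells. The counts after IL-1α were 1 and 742. Of its neighbours, *Cdkn2b*, which encodes p15INK4b, had 0 against 19, while *Mtap*, which encodes a methionine salvage enzyme, had 4626 against 4717. Both neighbours were chosen after the values were seen. *Igf2bp3*, an RNA-binding protein of fetal tissue, had 2 counts against 1559. The Rac exchange factor gene *Tiam1* had 0 against 431, and *Kdm5b*, a histone demethylase gene, 3 against 464. For *Slc45a3*, encoding a membrane transporter, the counts were 1 and 858, and for *Laptm4b*, encoding a lysosomal membrane protein, 5 and 1939. *Gsdmd*, the pore-forming effector of pyroptosis, had 0 against 259. In the other direction, *Atp2a3*, the SERCA3 calcium pump of the endoplasmic reticulum, had 1845 counts in UT +*GFP* and 2 in UT +*MK2* cells, and 1955 and 3 after IL-1α. Its log2 ratio at rest was 9.27 (7.99 to 12.90). The orphan receptor gene *Gpr141* (187 against 2) and the zinc finger gene *Zfp618* (292 against 1) followed. *Septin6*, a cytoskeletal GTPase gene, had 157 against 3, and *Themis2*, encoding a signaling adaptor of macrophages and B cells, 183 against 2. *Slpi*, which encodes a secreted inhibitor of leukocyte proteases, had 106 against 3, and the nuclear body gene *Sp110* 66 against 2.

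The remaining genes with the lowest ratios were also at or near 0 in both +*GFP* libraries. They included the transcription factor gene *Zfhx3* (0 against 312), the Ras family exchange factor gene *Ralgps2* (0 against 346) and the laminin chain gene *Lamc3* (0 against 246). *Dmwd* had 0 against 633, *Bahcc1* 0 against 386, *Nyap2* 0 against 352, *Fbxl16* 0 against 258 and *Sgsm1* 0 against 206. The largest differences in normalized counts lay in more abundant genes with smaller ratios. Higher in UT +*GFP* cells were *Spink5*, a protease inhibitor gene (8502 against 1948), the sorting receptor gene *Sorl1* (5950 against 1551), *Slc44a2*, which encodes a choline transporter (4487 against 2069), and *Prrg4* (3975 against 1549). *Qser1* (3582 against 1508) and *Lgals3bp* (3426 against 1614) completed this set. Lower were *Arhgap19*, which encodes a GTPase-activating protein (3825 against 7841), the endosomal sorting nexin gene *Snx2* (3624 against 7279), the endocytic scaffold gene *Itsn1* (754 against 4105) and the heme transporter gene *Slc48a1* (2036 against 5315). The intervals of *Arhgap19* (-1.09 to -0.98) and *Snx2* (-1.06 to -0.95) reached under 2-fold.

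Lineage transcription factors differed in both directions. *Maf*, encoding a leucine zipper factor of tissue macrophages, had 34 counts in UT +*GFP* against 1546 in UT +*MK2* cells, a 45.5-fold difference, and 25 against 1298 after IL-1α. *Cebpa*, encoding C/EBPα, had 19 against 431, and 20 against 415 after IL-1α. In these genes the +*GFP* libraries both lay below both +*MK2* libraries. *Rxra*, the retinoid X receptor that pairs with several nuclear receptors, had 535 against 3334. Of 28 measured lineage transcription factors, 4 were higher and 3 lower by at least 2-fold, with a median log2 ratio of -0.005. After IL-1α, 2 of the higher and 3 of the lower ones were again past 2-fold. The higher ones were *Runx2* (542 against 159), *Irf4* (116 against 43), *Id3* (751 against 356) and *Pparg* (198 against 96). *Spi1*, encoding the myeloid master factor PU.1, had 4782 and 4551.

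Receptors that clear dead cells and lipids were lower as a group. Of 18 measured scavenger and efferocytosis genes, 7 were lower and 2 higher by at least 2-fold, with a median log2 ratio of -0.45 against 0.02 over all genes. *Gas6*, the bridging ligand between dead cells and the kinase MerTK, had 873 against 5284 counts, and *Mertk* itself 421 against 1093. *Mfge8*, another bridging protein, had 496 against 1782. The scavenger receptor gene *Cd36* had 2471 against 9790, the mannose receptor gene *Mrc1* 273 against 1499, and *Stab1* 1203 against 2624. After IL-1α the counts of *Gas6* were 762 and 5382 and those of *Cd36* 2588 and 9480, so the untreated and treated libraries of a line lay close together. *Cd93*, which takes part in the uptake of dying cells, went the other way (3672 against 184, log2 ratio 4.31), as did the oxidized LDL receptor gene *Olr1* (17 against 0). *Dab2* had 2138 against 11274. The cholesterol exporter gene *Abca1* had 792 against 2638, and the fatty acid binding protein genes *Fabp4* and *Fabp3* went in opposite directions (156 against 418, and 38 against 3).

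The list of Fc receptors, ITAM adaptors and related receptors, which holds activating and inhibitory members, was higher as a group. Of 27 measured genes of this list, 8 were higher and 0 lower by at least 2-fold, with a median log2 ratio of 0.49. The ratio was above 0 in 20 and below 0 in 7. *Trem3* had 278 counts in UT +*GFP* and 42 in UT +*MK2* cells, and *Trem1* had 162 and 26. *Treml2* followed with 467 against 124, *Cd300c2* with 231 against 65 and the inhibitory receptor gene *Pirb* with 163 against 68. The others were *Cd300ld*, *Pilra* and *Fcgrt*. In 7 of the 8 genes the difference was at least 2-fold after IL-1α too. In the C-type lectin list, *Clec4e* was higher (2965 against 852) and reached 13917 against 956 after IL-1α, and *Clec4n* had 189 against 89, while the median of the 11 lectins was -0.20.

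The oxidase subunit gene *Cybb* had the largest difference in normalized counts among the higher protein-coding genes, with 20036 in UT +*GFP* and 5380 in UT +*MK2* cells (31373 and 5385 after IL-1α). Antigen presentation genes were also higher in part. *H2-K1*, a classical class I heavy chain, had 3193 against 698, and H2-T23, a non-classical one, 787 against 350. Among the 17 measured class I genes, 2 were higher and 1, H2-Q4, was lower (9 against 24). The invariant chain gene *Cd74* had 6809 against 2753 and the class II transactivator gene *Ciita* 30 against 4, and all 6 measured class II genes had a log2 ratio above 0. *Mpeg1*, encoding a pore-forming protein of phagosomes, had 3305 against 1560. Among adhesion molecules, 5 of 23 were higher and 1 lower. The integrin genes *Itgal* (174 against 63), *Itga7* (35 against 8) and *Itgax* (53 against 18) were among them. The leukocyte actin-binding protein gene *Lsp1* had 1870 against 187, and *S100a6*, encoding a calcium-binding protein, 1235 against 43.

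**Figure D2:**
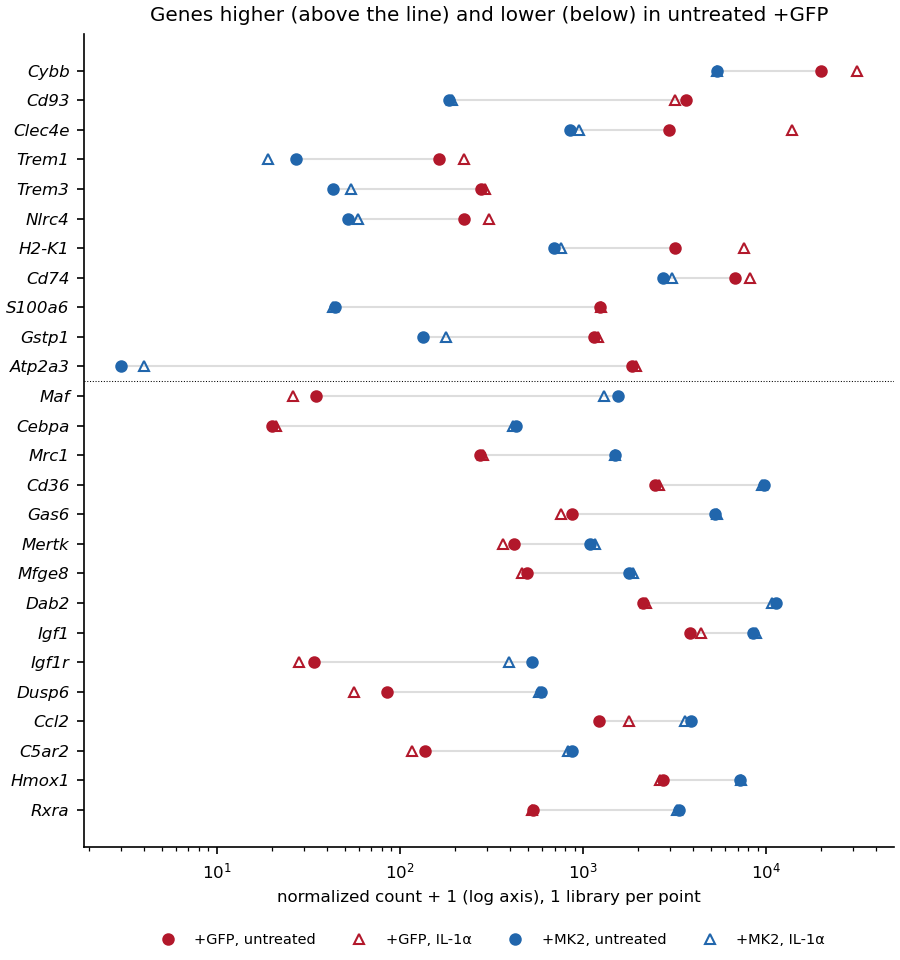
Normalized count plus 1 (log axis) of 26 named genes in the 4 libraries, with filled circles for untreated, open triangles for IL-1α, red for +*GFP* and blue for +*MK2*. The dotted line divides genes that were higher from genes that were lower in untreated +*GFP* cells. For most genes, such as *Maf*, *Cd36* and *S100a6*, the untreated and IL-1α libraries of a line lie together, whereas *Clec4e*, *H2-K1* and *Cybb* were higher still in +*GFP* cells after IL-1α.

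Chemokines were lower at rest. All 7 measured CC chemokine genes had a log2 ratio below 0, 4 of them by at least 2-fold, with a median of -1.04. *Ccl2*, which attracts monocytes, had 1216 counts in UT +*GFP* and 3868 in UT +*MK2* cells, and *Ccl7* had 152 and 985. *Ccl6* (68 against 142) and *Ccl5* (34 against 71) were near the 2-fold limit. After IL-1α, *Ccl2* and *Ccl7* were again at least 2-fold lower. The receptor genes for complement fragments were lower too, with 137 against 873 for *C5ar2* and 1983 against 5268 for *C3ar1*. The complement list as a whole was mixed. Of its 15 measured genes, 2 were higher and 3 lower by at least 2-fold, with a median log2 ratio of -0.16. *C1qa* (86 against 334) and *C1qc* (306 against 1069), which encode chains of the first complement component, were lower. *C1qb*, the gene of another chain, was within 2-fold. *C3* itself had 230 against 109. Cytokine receptors were mixed. Of 21 measured, *Il10ra* (431 against 96), *Il17ra* (299 against 108) and *Il7r* (992 against 455) were higher, and *Il11ra1* (106 against 586) was lower.

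The IL-1 family was divided. *Il1b* (chromosome 2, 129364570 to 129371139) had 47 counts in UT +*GFP* and 15 in UT +*MK2* cells, and 2007 and 52 after IL-1α. *Il1r1*, encoding the signaling receptor, had 63 against 25 at rest, but was not at least 2-fold higher after IL-1α. *Il1rn*, the secreted antagonist of that receptor, had 663 against 1705, and *Il1a* had 13 against 41. *Nlrc4*, a sensor of bacterial flagellin that assembles an inflammasome, had 223 against 51. Of the 29 NF-κB, IκB and IKK genes, 1 was higher and 1 lower by at least 2-fold (3.45% each), not above the shares of 3.51% and 5.26% over all genes. *Traf1* was higher (15 against 4), and *Tnfaip3*, encoding the NF-κB inhibitor A20, was lower (147 against 1147). The median of this list was 0.11 at rest and 0.64 after IL-1α. Of 29 interferon-stimulated genes, 3 (10.3%) were higher and 2 (6.90%) lower, against 3.51% and 5.26% over all genes. The median of the list was 0.11. In the IL-1α pair, 2 of the higher and 2 of the lower genes were again past 2-fold. Among the higher ones, *Ddx58*, the RNA sensor RIG-I, had 340 against 61, and *Oas3* had 2103 against 873.

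Several receptor tyrosine kinases and a minority of the genes that limit ERK signaling were lower. Of 8 measured receptor tyrosine kinases, 5 were lower and 0 higher by at least 2-fold, with a median log2 ratio of -1.41. *Igf1r* had 33 counts in UT +*GFP* and 525 in UT +*MK2* cells. *Fgfr1* had 0 against 116, and *Epha2*, an ephrin receptor gene, 37 against 214. Among 15 growth factor genes, 5 were lower and 1 higher. *Igf1* had 3866 against 8494, *Vegfa* 564 against 1288 and *Angpt2* 246 against 923, while *Fgf13* was higher (134 against 23). Of 15 ERK feedback and Ras regulator genes, 4 were lower and 0 higher. *Dusp6*, the phosphatase that inactivates ERK, had 84 against 591, and *Spry2*, an inhibitor of receptor signaling, 39 against 152. The ETS factor gene *Etv5* had 440 against 1458. Of 23 AP-1 and immediate-early genes, 2 were lower and 0 higher, with a median of -0.45 at rest and 0.31 after IL-1α. The AP-1 gene *Fosl1* had 38 against 290.

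In the lists of p53 targets, the unfolded protein response and NRF2, single genes differed rather than whole lists. Of 29 p53 target genes, 3 were lower and 1 higher, with a median of -0.03. Among these targets, *Phlda3*, which restrains AKT, had 193 against 1408. In a separate list of 11 measured CDK inhibitor and p53 pathway genes, 2 were lower and 0 higher by at least 2-fold. The p53 inhibitor gene *Mdm4* had 3038 against 9495. Of the 22 genes of the unfolded protein response and ATF4, *Chac1* (33 against 253), *Trib3* (187 against 683) and *Atf5* (184 against 651) were lower. Iron genes were lower more widely, with 11 of 12 below 0, a median log2 ratio of -0.32 and 3 lower by at least 2-fold. These 3 included *Hmox1*, which degrades heme (2726 against 7214), and the transferrin receptor gene *Tfrc* (11206 against 25654). The other was the gene of the exporter ferroportin, *Slc40a1* (314 against 659). Of the 29 NRF2 and glutathione genes, *Gstp1* (1146 against 133) and the cystine transporter gene *Slc7a11* (1686 against 629) were higher, and *Gsr*, *Hmox1*, *Gstm2* and *Mgst1* were lower.

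By contrast, few genes of housekeeping functions were past 2-fold. In 7 lists covering G1/S, G2/M, DNA repair, cholesterol synthesis, autophagy, the proteasome and mitochondrial ribosomes, 0 of 257 measured genes were past 2-fold, and their log2 ratios ran from -0.95 (*Hsd17b7*) to 0.63 (*Psmb9*). These lists were picked because none of their genes was called, among 105 lists and families. Of these genes, 245 had a mean of at least 300, a level at which few of all genes were past 2-fold. Smaller shifts were present all the same. The 23 cholesterol synthesis genes had a median of -0.27, with 18 below 0. The 82 ribosomal protein genes had a median of 0.19, with 73 above 0, and the 13 mitochondrially encoded genes a median of -0.25. One of 77 respiratory chain genes, *Cox6a2*, was lower (20 against 46).

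**Figure D3:**
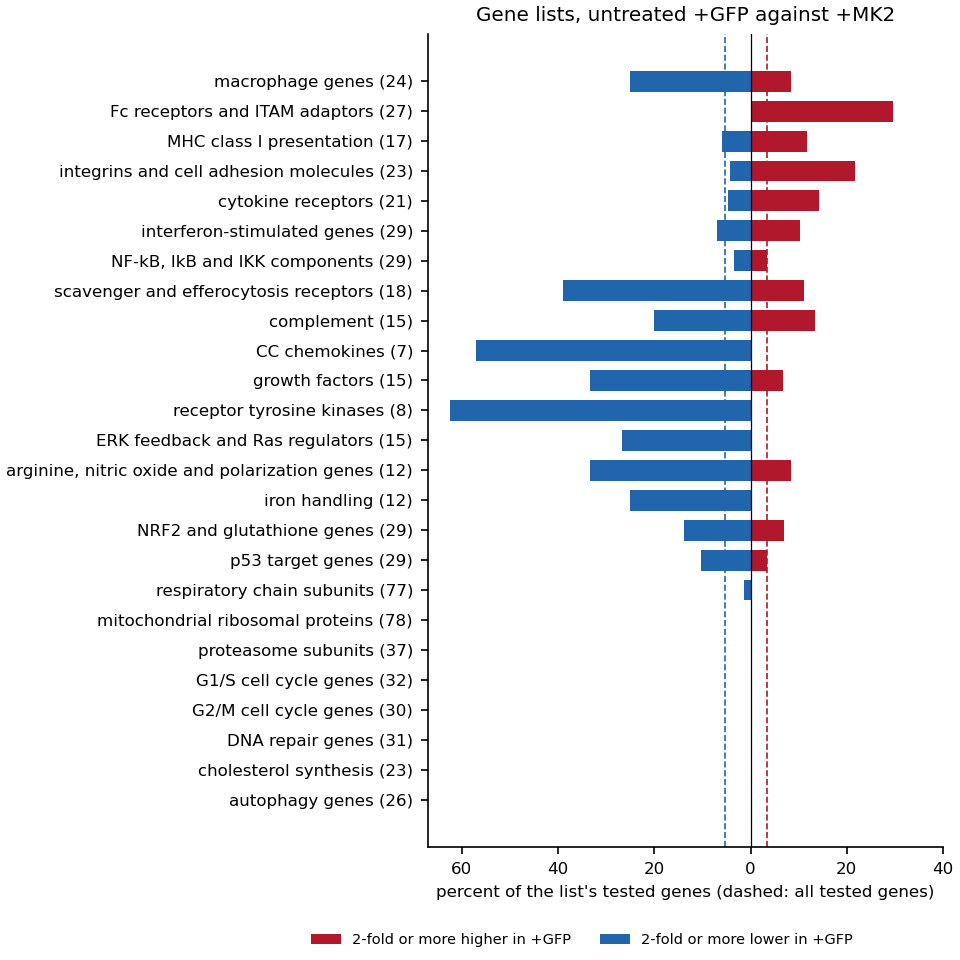
Percent of the tested genes of 25 selected lists and families that were at least 2-fold higher (red, to the right) or lower (blue, to the left) in untreated +*GFP* cells, with the number tested in brackets. Dashed lines mark the shares over all tested genes, 3.51% higher and 5.26% lower. The bars of the last 7 lists are empty, and among the lists drawn the bars of receptor tyrosine kinases, CC chemokines and scavenger receptors reach farthest to the left.

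The position of genes in the genome also separated the lines. The median log2 ratio was -0.26 over the 746 genes of chromosome 1 and -0.25 over the 1012 genes of chromosome 2, and -0.12 over the 487 genes of chromosome 15. On the 16 other nuclear chromosomes apart from chromosome 8 the medians lay between 0.01 and 0.12. In the IL-1α pair, chromosomes 1, 2 and 15 had medians of -0.24, -0.24 and -0.12. On chromosome 1, 590 genes (79.1%) had a ratio below 0. The shift was small in each gene but ran through long stretches. In chromosome 8 it was limited to the first 133 genes, from *Insr* to *Gm10131* (3122061 to 34111737 in GRCm38). Their median was -0.52 at rest and -0.51 after IL-1α, with 114 of 133 below 0, whereas the other 545 genes of the chromosome had medians of 0.04 and 0.07. *Gas6*, *Angpt2* and *Fgfr1*, described above, lie in this stretch, as do *Gsr* and *Eif4ebp1*. In chromosome 2, the 442 genes up to *Hsd17b12* (3284212 to 94157964) had a median of -0.38 and the other 570 a median of -0.13. The limits of these stretches were chosen after the values were seen.

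Over windows of 20 neighbouring genes, the medians of the UT and the IL-1α pair had a Pearson correlation of 0.881 (12088 overlapping windows). Both medians were at or below -0.4 in 229 windows, of which 137 were on chromosome 2, 83 on chromosome 8 and 9 on chromosome 1. Both were at or above 0.4 in 9 windows. In chromosome 1, the proximal part of chromosome 2 and the proximal part of chromosome 8 together, 104 of 1321 genes (7.87%) were at least 2-fold lower, against 4.95% of the other 11162 genes, so that 15.8% of all lower genes lay there. DNA copy number was not measured in these samples, and its part in the shift was not tested. Subtracting the median of the 40 neighbouring genes from each ratio left 422 genes higher and 652 lower.

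**Figure D4:**
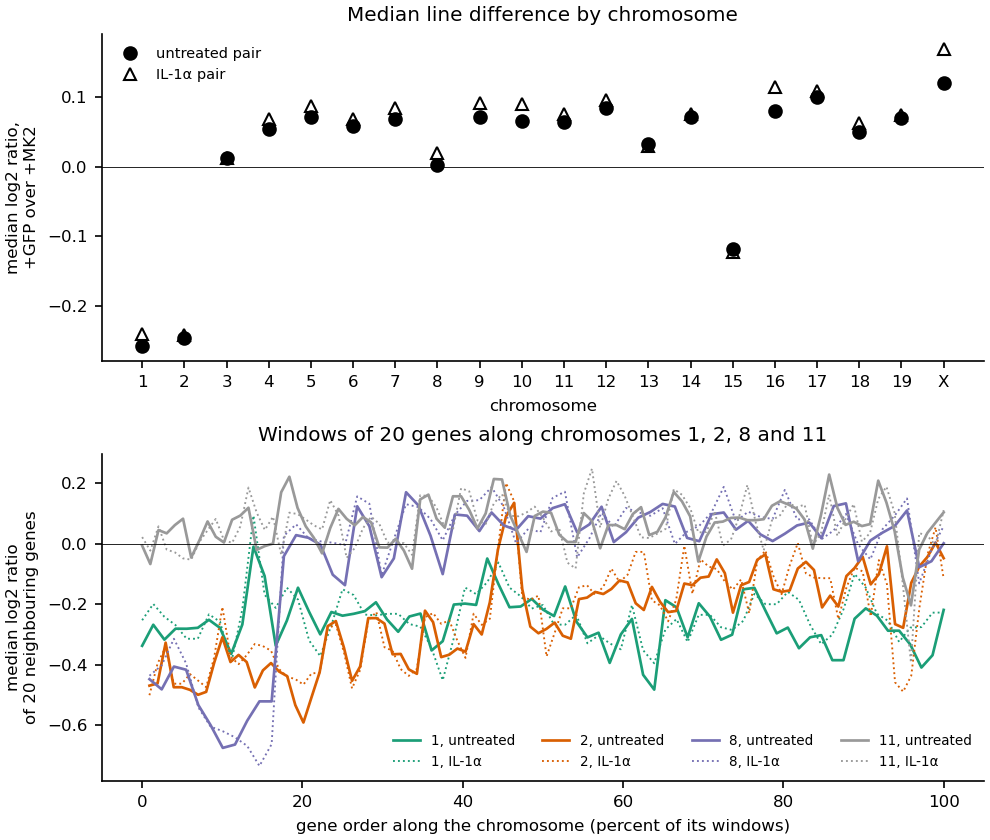
Top, median log2 ratio of +*GFP* over +*MK2* on each chromosome in the untreated pair (filled circles) and the IL-1α pair (open triangles). Bottom, medians of 20 neighbouring genes in gene order along chromosomes 1, 2, 8 and 11, solid for untreated and dotted for IL-1α. Chromosomes 1, 2 and 15 lie below the others, and chromosome 8 is low only over its first genes.

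The sequences shown above are selected examples. The promoters of *Dusp6* and *Gas6*, also lower and not shown, held 16 and 10 CpG dinucleotides. Of the 10789 measured protein-coding genes, 8707 (80.7%) had a RefSeq promoter. In the 250 bases before the start, the 244 genes that were at least 2-fold higher had a median of 6 CpG dinucleotides (quartiles 3 and 17). The 374 lower genes had a median of 14 (5 and 22) and the 8089 genes within 2-fold a median of 17 (11 and 23). Over all 32851 promoters the median was also 6. In this median the higher genes thus differed from other measured genes but not from promoters in general. With 5 or fewer CpG were 46.3% of the higher, 26.7% of the lower and 10.7% of the remaining genes. Since low counts go along with both large ratios and CpG-poor promoters, the genes were also divided by level. At a mean of at least 300, the medians were 6, 17 and 17 for higher, lower and remaining genes, and below a mean of 300 they were 6, 14 and 13. Short motifs were searched on both strands of the same window. The AP-1 motif TGANTCA was in 7.79% of the higher and 7.75% of the lower promoters, against 3.87% of the remaining genes and 6.75% of all 32851 promoters in the RefSeq table. These shares varied with level. At a mean of at least 300 the shares of higher, lower and remaining genes were 11.4% (8 of 70), 11.6% (11 of 95) and 3.59%, and below 300 they were 6.32%, 6.45% and 5.12%. Over higher, lower, remaining and all promoters, the TATA motif TATAAA was in 8.61%, 6.95%, 5.79% and 12.4%, and the C/EBP motif TTGCNNAA in 11.9%, 6.68%, 7.17% and 9.56%. The motifs CRE (TGACGTCA, in 1.23%, 1.34%, 3.00% and 1.55%) and E-box (CACGTG, in 8.20%, 8.82%, 8.86% and 6.02%) contain a CpG themselves. A match of letters does not show that a factor binds, and overlapping matches of different motifs were each counted.

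**Figure D5:**
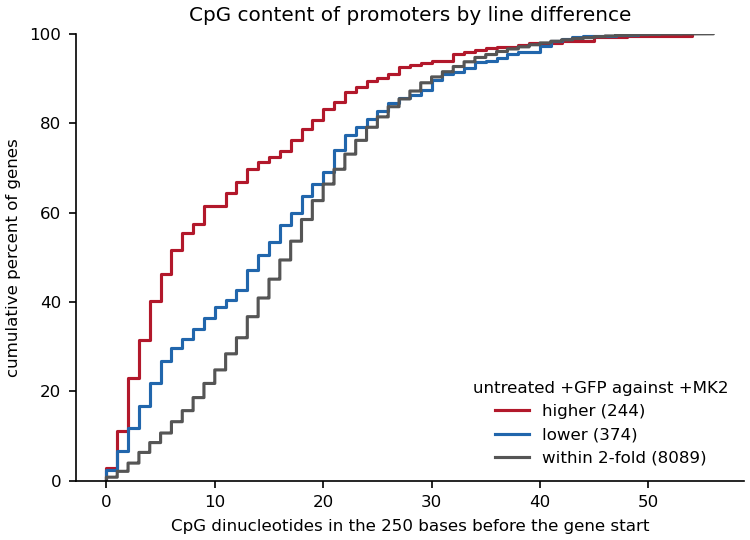
Cumulative percent of genes (y axis) by the number of CpG dinucleotides in the 250 bases before the gene start (x axis), for genes higher (red), lower (blue) or within 2-fold (gray) in untreated +*GFP* cells. The red curve rises first, with 46.3% of the higher genes at 5 or fewer CpG against 10.7% of the genes within 2-fold.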

How the data were processed

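RNA was sequenced from 4 libraries, 1 per condition. The study's text describes single reads of total RNA after ribo-depletion, whereas the labels describe poly(A) selection and stranded paired reads, and this was not resolved. The authors deposited 1 score per gene and library, a normalized count (DESeq2, per the submitters' processing notes) rounded to whole numbers, for 55356 genes. Column names point to salmon, and versions are not given in the sources used here. The processing notes name GRCm38, but 97.1% of the deposited gene starts differ from GENCODE M21 (GRCm38), to which 52080 gene IDs matched. Printed positions are therefore those of M21, and gene order follows the deposited table.

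Because the values are not raw counts, no count model was run and the values were not normalized again. Log2 ratios used a pseudocount of 1 and genes with a mean of at least 10 (12483 genes), and a gene was called at 2-fold. Intervals are 95% exact Clopper-Pearson intervals. No fold is given against a value of 0. Intervals cover counting error only. The ratio and interval code was tested on simulated data.

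The members and lists were chosen with earlier results of these data known. The 75 lists held 1737 entries, of which 3 symbols were not found, and 30 symbol families were added. After the data were seen, the pattern of 1 family was changed and 1 other family was dropped. Named genes were the 15 highest and 15 lowest ratios among genes with at least 50 counts in an untreated library, the 15 largest differences in counts each way among genes past 2-fold (both without predicted and RIKEN genes), list members past 2-fold, and *Mapkapk2*, *Mapkapk3* and *Il1b*. Genes outside this rule are named as list members, neighbours or markers. A few items are not reported here. CpG and motifs were counted in RefSeq promoters (GRCm38.p6). Python 3.11 was used with pandas and scipy. Alternatives were other pseudocounts, minimum means and scalings, and, chosen after seeing the data, protein-coding genes alone and ratios relative to neighbouring genes.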

Additional observations from a re-analysis of the deposited data

Results flagged for a closer look

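Among named genes with at least 50 counts in a library, 3 were past 2-fold in opposite directions at rest and after IL-1α. Their counting intervals excluded 0 in both pairs. Genes with smaller differences of opposite sign were not listed. The change of direction was not tested, as each condition has 1 library. *Tnfaip3* had a log2 ratio of -2.96 at rest (147 against 1147) and 1.54 after IL-1α (3524 against 1207). *Il1a* had -1.58 (13 against 41) and 1.29 (136 against 55). *Rps18-ps3*, a ribosomal protein pseudogene whose reads may be shared with its parent gene, had -1.35 (35 against 91) and 1.24 (77 against 32).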

How the results depend on the processing

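No paired analysis was possible because each condition has 1 library, so the untreated groups form only 1 pair. A fit of the line over both treatments, with treatment as a term, would answer another question (the line averaged over treatments) and was not run. As each group has 1 library, no library could be left out. The counts of genes at least 2-fold higher and lower at rest, and of those past 2-fold in both pairs, stayed within 1.5 times of the reported values with pseudocounts of 0.5 and 5, with the 3 other scalings, relative to the 40 neighbouring genes and over protein-coding genes alone. They moved with the minimum mean. At a mean of at least 1, 1454 genes were higher and 1819 lower, with 586 and 883 in both pairs, and at a mean of at least 50 the counts were 242 and 341, with 277 lower in both pairs. These minimums change how many genes are compared. Stricter calls gave 233 higher and 383 lower where the counting interval lay wholly beyond 2-fold, 172 and 309 with 0.5 of the reads, and 142 and 286 at 4-fold or more. None of 220 named genes changed sign under the pseudocounts, scalings or relative to neighbouring genes, but 9 of them were under 2-fold relative to neighbouring genes and 8 with a pseudocount of 5. Of 97 list medians, 2 changed sign by a count that left out medians reported close to 0. Both did so at a mean of at least 50. They were those of chemoattractant receptors (0.22 as reported, then -1.15) and germline genes (-0.23 as reported, then 0.036). Genes with few counts carry wide intervals.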

Other observations

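Gene families outside the main account held single genes with large differences. Of 27 measured adhesion and orphan G protein-coupled receptors, 3 were higher and 4 lower by at least 2-fold. *Gpr132*, a receptor that responds to lysophospholipids and lactate, had 787 counts in untreated +*GFP* and 38 in untreated +*MK2* cells (995 and 55 after IL-1α), and the latrophilin gene *Adgrl1* had 1538 and 406. Of 32 TRIM family genes, 1 was higher and 4 lower, led by *Trim2* (6 against 350) and *Trim30a* (6 against 80). Of 11 measured homeobox genes, 3 were lower and 0 higher by at least 2-fold, namely *Meis2* (9 against 255), *Hoxb4* (19 against 128) and *Six5* (0 against 47). The placental and testis homeobox gene *Rhox5* had 13 against 243. The calcium channel gene *Cacna1a* had 36 against 837, and the adenosine deaminase gene *Ada* 155 against 819. Of 186 solute carriers, 10 (5.38%) were higher and 9 (4.84%) lower, close to the shares over all genes.

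The ribosomal protein pseudogenes *Rpl35a-ps6*, *Rpl35a-ps2* and *Rpl35a-ps3* had 140, 82 and 0 counts in untreated +*GFP* and 0, 0 and 205 in untreated +*MK2* cells. Reads can be shared among such copies, so these values are uncertain.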
